A study of Homo sapiens with 3 samples.

Results

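The cytosolic ribosomal proteins are the protein subunits of the large (60S) and small (40S) parts of the ribosome that translates nuclear messenger RNA. They were taken here as all array probes, other than control spots, whose gene name is that of an RPL, RPS or RPLP gene with its number and any letter ending, or RPSA. The rule found 169 of 58201 probes under 85 gene names, and 84 of these names, among 22619 genes in all, had a probe well above background on at least 1 array. Of the 84 genes, 75 are the canonical genes of the ribosome and 9 are paralogs, second gene copies such as RPL10L that encode a variant of a canonical protein. The canonical names RPL10 and RPSA matched no probe, and the 1 probe of the paralog RPL39L was not well above background on any array. All 84 genes were well above background on all 3 arrays.

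RNA came from HCT116 cells, an established epithelial colorectal cancer line, with 1 array of each condition. In the conditions SMARCA4-KD1 and SMARCA4-KD2, cells received a small interfering RNA (siRNA) against SMARCA4, the ATPase of the SWI/SNF chromatin remodelling complex, also called BRG1, and in NC a scrambled negative control. The treatment field of the records writes PRMT1 where titles and protocol write SMARCA4, so the targeted gene was read first. SMARCA4 signals were 3960 and 4129 on the knockdown arrays and 14026 on the NC array, which left 26.6% of the NC level in SMARCA4-KD1, whereas PRMT1 was higher by 0.27 and 0.37 on the log2 scale. The knockdown is transient and partial, and the labels do not say which siRNA belongs to which number.

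Between 45.7% and 47.3% of the probes were well above background on an array, and no spot was saturated. Of the epithelial markers EPCAM, CDH1, KRT8, KRT18, KRT19 and CDX2 were well above background on all arrays and VIL1 on none. Of the markers of other cells CD3E and PECAM1 were well above background on none. PTPRC and COL1A1, a fibroblast collagen, were well above background on all arrays, with signals of 37.0 to 49.4 and of 348 to 477. The knockdown arrays shared a slide that did not carry the NC array, so slide and condition cannot be told apart. No condition was repeated, which leaves each single difference without a replicate check and limits the precision. Every value against NC uses the same NC array. The error printed after a difference is the extraction software's own estimate for a pair of spots, 0.20 on the log2 scale for most probes, which leaves out the spread between cultures. Where 2 differences or 3 signals are listed without their array, SMARCA4-KD1 comes first, then SMARCA4-KD2, then NC.

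Ribosomal protein messages are among the most abundant in growing cells, and their production is matched so that subunits are made in equal numbers. Most begin with a 5′ terminal oligopyrimidine (TOP) tract, a C followed by further C or T bases at the cap, through which mTORC1 and the RNA-binding protein LARP1 set their translation together with that of elongation factors. Several paralogs are expressed in particular tissues instead, such as RPL10L and RPL39L in the testis and RPL3L in striated muscle. RPL5 and RPL11 also bind MDM2 outside the ribosome and thereby stabilise p53.

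The bases around annotated starts show this difference between canonical genes and paralogs. Each window below holds 30 bases from RefSeq (GRCh38.p14), 15 before the annotated start and 15 from it on, with the tract in capitals where a C with at least 4 further C or T bases began within 5 bases of the start.
RPL10, 1 of 3 annotated starts, chrX:154398362-154398391, plus strand: caggcggaggagcgCCTCTTTCCCTTCggt
RPL10L, chr14:46651767-46651796, minus strand: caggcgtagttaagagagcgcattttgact
RPL26, chr17:8383179-8383208, minus strand: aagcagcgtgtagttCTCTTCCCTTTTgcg
RPL26L1, 1 of 2 annotated starts, chr5:172958714-172958743, plus strand: agtcttccaggggtcggcgaacgaaacgcg
RPS27, chr1:153990747-153990776, plus strand: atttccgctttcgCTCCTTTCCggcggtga
RPS27L, chr15:63157463-63157492, minus strand: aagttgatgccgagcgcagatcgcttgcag
On the transcribed strand alone, such a tract was found for 53 of 62 canonical genes with an annotated start in the table (85.5%), for 3 of 8 paralogs (37.5%) and for 25.2% of all 27305 genes. A match is a description of these letters and not a measured site.

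The 75 canonical ribosomal protein genes read under their symbols stayed close to their NC level in both knockdowns. RPL10, listed under a transcript name and far below NC in both, is not among them and is given with RPL10L. All differences are of log2 signal after each array was scaled to its own 75th percentile, so that a change in total RNA per cell cannot be seen and fewer expressing cells cannot be told apart from less RNA per cell. The 75 genes had a median log2 difference of 0.02 for SMARCA4-KD1 and 0.11 for SMARCA4-KD2, beside 0.00 and 0.02 over all genes tested. Of the 75, 73 and 74 lay within 1.5-fold in the respective knockdowns. In SMARCA4-KD1 1 of the 75, RPS27, was at least 1.5-fold lower, where 12.3% of all genes were. Another, RPL27A, was at least 1.5-fold higher, where 11.2% of all genes were. In SMARCA4-KD2 none of the 75 was at least 1.5-fold lower (9.74% of all genes). RPL27A again was the 1 that was higher (10.1% of all genes). The differences of these 75 genes had SDs of 0.19 and 0.15 in the respective knockdowns, against 0.59 and 0.51 over all genes. The SDs of the 75 were about the size of the error of a single difference. They leave out RPL10, at -2.11 and -2.31, and were not computed with it. Other genes as bright as these were less spread too. Of the 75 canonical genes 72 had a mean signal of at least 50000, with SDs of 0.17 and 0.14. The 331 genes with such a signal that the name rule did not match had medians of 0.04 and 0.10, with SDs of 0.27 and 0.24. Some of these 331 are ribosomal protein pseudogenes listed under other names. Neither set holds RPL10, whose brighter probe had a mean signal of 39440.

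The medians of both subunits were close to each other, and their difference was not tested. The 42 canonical 60S genes had medians of 0.04 and 0.09 in the first and second knockdown, and the 30 canonical 40S genes 0.02 and 0.11. Of the 75 canonical genes 43 were above 0 in SMARCA4-KD1, where 49.7% of all genes were, and 56 in SMARCA4-KD2, where 52.1% of all genes were. Of the 331 genes outside the name rule with a mean signal of at least 50000, 192 and 239 were above 0 in the respective knockdowns. The stalk proteins RPLP0, RPLP1 and RPLP2, which recruit the elongation factors to the 60S subunit, stood at -0.05, -0.28 and -0.14 in the first knockdown and at 0.12, -0.05 and 0.08 in the second. None of these 6 stalk values reached 1.5-fold.

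RPS27, a zinc finger protein of the 40S subunit, was the lowest of the 75 canonical genes read under their symbols (RPL10, which is listed under a transcript name, is given with RPL10L). It gave signals of 179572 (SMARCA4-KD1), 235872 (SMARCA4-KD2) and 276718 (NC), so that both knockdowns lay below NC and SMARCA4-KD1 below SMARCA4-KD2. The differences were -0.71 ± 0.20 and -0.26 ± 0.20, and only that of SMARCA4-KD1 passed 1.5-fold. A second bright probe of RPS27 gave smaller differences in the same direction, -0.32 and -0.13.

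RPL31, RPL26, RPL36A and RPL7, all of the 60S subunit, followed. By its brightest probe RPL31 stood at -0.36 and -0.19, but its second probe, at base 397 rather than 336 of the transcript, gave -0.06 and 0.06. RPL26 stood at -0.37 and -0.16, with -0.11 and 0.11 by its second probe. RPL36A stood at -0.42 and -0.09, with -0.11 and -0.02 by its second probe. For these genes the size, and for RPL31 and RPL26 in SMARCA4-KD2 the direction, therefore depended on the probe. RPL7 was lower by all 3 of its probes, at -0.21 and -0.13, -0.53 and -0.09, and -0.44 and -0.25. None of these values passed 1.5-fold.

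RPL11, RPL4 and RPL35 were among the highest canonical genes measured by a bright probe. RPL11 had signals of 164213, 168865 and 133333, with both knockdowns above NC, and differences of 0.21 and 0.31, whereas RPL5, its partner in the 5S particle and in MDM2 binding, stood at -0.26 and -0.05 by its brightest probe. The other 3 probes of RPL5 gave 0.15 and 0.14, 0.13 and 0.19, and -0.07 and 0.07, so the direction of RPL5 depended on the probe. RPL4 stood at 0.16 and 0.32, and RPL35 at 0.23 and 0.18. All of these values lay within 1.5-fold.

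RPL27A, the gene of a 60S protein, was the 1 gene past 1.5-fold in both knockdowns among the 75 canonical genes read under their symbols, with 0.86 ± 0.21 and 0.70 ± 0.21. Its signals were 269, 232 and 139, with both knockdowns above NC. However, these signals come from the only probe under this name, which lies at chr11:8711092-8711151 (hg19) and starts at base 4551 of the transcript named in the files, and no other canonical gene had a brightest probe with a mean signal under 10000.

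Probes like that of RPL27A were read separately. Besides their bright probes, canonical genes had 19 probes, of 17 genes, with a mean signal under 10000, many of them listed with other transcript forms or lying far along the transcript. They had median differences of 0.64 and 0.43, and 6 of 19 were at least 1.5-fold higher in both, where 6.56% of the other probes with such a signal were. In contrast, none of the 138 brighter probes was, where 6.72% of the other probes at or above 10000 were. Medians were 0.04 and 0.11 for the 138, and 0.12 and 0.12 for those other bright probes. The other probes with a mean signal under 10000 had medians of -0.01 and 0.00.

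The difference appeared within single genes. For 18 of these dim probes, of 16 genes, a brighter probe of the same gene was present, and 16 of the 18 dim probes stood above it in both knockdowns, with median gaps of 0.59 and 0.29. RPS4X, for which 1 probe is listed with another transcript, is an example: that probe had signals of 313, 264 and 144 (1.04 and 0.85), while the main probe had 158083, 157563 and 142624 (0.06 and 0.11). RPL23A, at base 683 of its transcript, had signals of 12817, 12434 and 6053 (1.00 and 1.01), while its brightest probe stood at -0.04 and 0.20. RPS26 near its 5′ end had signals of 202, 144 and 87.2 (1.13 and 0.69), and its brightest probe, at base 597, stood at -0.08 and -0.03. RPL28, RPS20 and RPL27A held the other 3 of the 6 probes. By contrast, RPL28 also had a dim probe at -0.08 and -0.03, and the dim probe of RPS3A stood at 0.08 and 0.11. Which RNA the dim probes bound was not tested. The limit of 10000 was chosen after these values were seen, and the 6 probes were named for their values.

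Most paralogs also lay within 1.5-fold of NC, and 2 lay far from it, on opposite sides. Of the 9 tested, 1 was at least 1.5-fold lower in both knockdowns, RPL10L, where 8.03% of all genes were, and 1 was at least 1.5-fold higher in both, RPL26L1, where 6.35% of all genes were, so that 1 of 9 on each side is near the share of all genes. With RPL27A, these were the 3 of 84 ribosomal protein genes past 1.5-fold in the same direction in both. RPS4Y1 and RPS4Y2 were among the 9 and are given by name only.

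RPL10L had signals of 8003 and 6001 with the first and second knockdown and 40427 with NC, so both knockdowns lay far below NC. The NC signal was 5.36-fold and 6.89-fold that of the knockdowns after scaling, that is -2.42 ± 0.20 and -2.78 ± 0.20 on the log2 scale. By the mean of both knockdowns it ranked lowest of all 1719 genes with a mean signal of at least 10000. In limma, with both knockdown arrays as 1 arm against NC, its difference was -2.60 ± 0.19 (SE, adjusted p = 0.0675).

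RPL10 itself was measured under a transcript name rather than its symbol. Both bright probes named ENST00000436473 are described in the files as ribosomal protein L10, a 60S protein that is added late in the making of the subunit. The first, at chrX:153628866-153628925 (hg19), had signals of 26252, 21961 and 106417 in SMARCA4-KD1, SMARCA4-KD2 and NC. The second, at chrX:153628927-153629061, across a splice junction, had signals of 23762, 18835 and 96069. Both thus lay far below NC in both knockdowns, with differences of -2.11 and -2.31 for the first and of -2.10 and -2.38 for the second, each with an error of 0.20. RPL10 ranked directly after RPL10L, as 2 of the 1719 genes counted from the lowest (limma: -2.21 ± 0.12, SE, adjusted p = 0.0675). Among the 75 canonical genes read under their symbols the lowest value was the -0.71 of RPS27 in SMARCA4-KD1.

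The probes of RPL10L and RPL10 overlap in the homologous coding sequence. Both are shown as 60 bases in full, with the bases that are identical between them within the overlap in capitals.
RPL10L probe, chr14:47120514-47120573 (hg19): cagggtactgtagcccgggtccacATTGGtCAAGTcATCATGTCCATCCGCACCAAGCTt
RPL10 probe 1, chrX:153628866-153628925 (hg19): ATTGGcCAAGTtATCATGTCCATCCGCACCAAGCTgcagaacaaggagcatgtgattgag
Bases 25 to 60 of the RPL10L probe align with the first 36 bases of the RPL10 probe, and 33 of these are identical, with an unbroken run of 23. Counted from the 5′ end of the RPL10L probe, the differences are T30C, C36T and T60G. The other bright RPL10 probe shares no run longer than 7 bases with the RPL10L probe. Which of both RNAs the RPL10L probe bound was not tested.

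Other probes of the RPL10 family gave the following values. The probe ENST00000431607, described as RPL10 pseudogene 3, had signals of 44448, 42212 and 120772, again far below NC in both knockdowns (-1.53 and -1.55), and ranked 5 of 1719 from the lowest. A dim probe described as RPL10 (ENST00000424325), further along the locus, had signals of only 29.2, 34.1 and 35.8, with differences of -0.38 ± 0.31 and -0.10 ± 0.29. SNORA70, a small nucleolar RNA that RefSeq places within the RPL10 gene, had signals of 1779, 1260.2 and 1439.6, on both sides of NC (0.22 and -0.22).

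RPL26L1 was higher in both knockdowns. Its signals were 21777, 18971 and 8508 in the same order, with both knockdowns above NC (1.27 ± 0.20 and 1.12 ± 0.20). RPL26, which encodes a nearly identical protein, lay within 1.5-fold, with a direction that depended on the probe, as given above, and the probes of the pair share no run of more than 6 bases. RPL26L1 ranked 8 from the highest of the 1719 genes with a mean signal of at least 10000 (limma: 1.20 ± 0.10, SE, adjusted p = 0.0675).

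RPS27L, a target of p53, had signals of 46007, 41965 and 30696, with both knockdowns above NC, and differences of 0.50 and 0.42 that did not reach 1.5-fold. RPS27, its canonical gene, lay below NC in both knockdowns by both of its bright probes, as given above. RPL3L gave a weak signal of 77.8, 69.6 and 55.5 (0.40 and 0.30), beside -0.18 and -0.02 for RPL3, the 60S protein near the peptidyl transferase centre.

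The other pairs lay within 1.5-fold throughout. RPL22L1 stood at -0.27 and -0.23, beside 0.04 and -0.01 for RPL22. RPL7L1 stood at -0.18 and -0.05. RPL36AL stood at -0.12 and 0.19, and its probe shares a run of 24 bases with a probe of RPL36A. RPL39 and RPS4X, canonical genes of paralogs for which no value is given, stood at 0.09 and 0.09, and at 0.06 and 0.11.

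**Figure D1:**
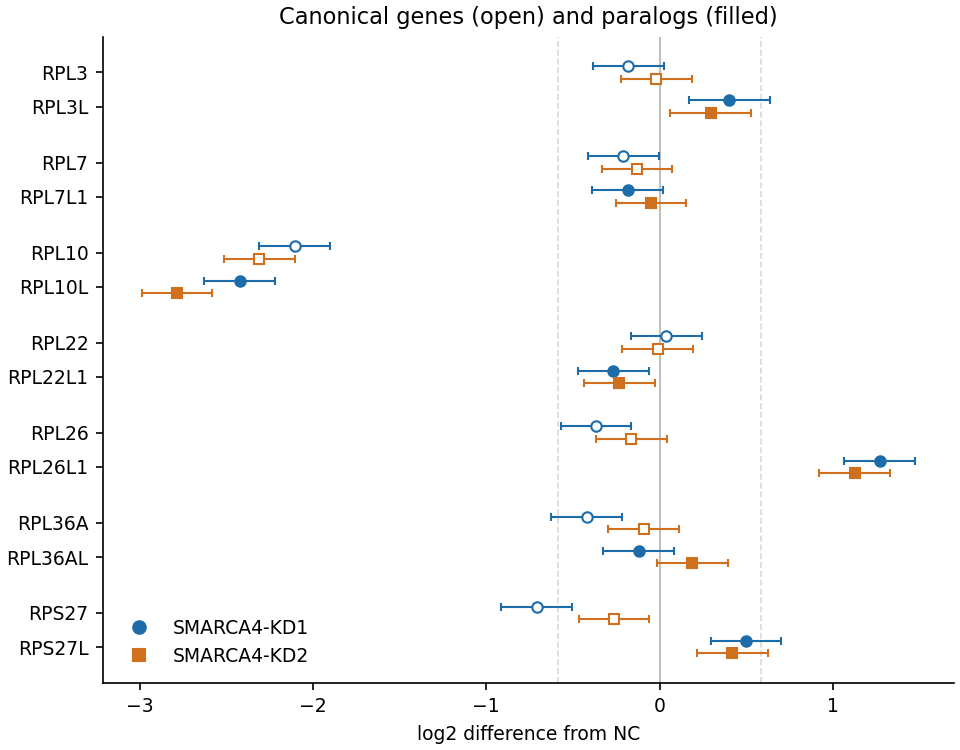
Log2 difference from NC in SMARCA4-KD1 (blue circles) and SMARCA4-KD2 (orange squares) for canonical genes (open) and their paralogs (filled), with 1 array per condition; bars are the extraction software's error of the difference, and dashed lines mark 1.5-fold. RPL10 (bright probe 1) and RPL10L are both far to the left, and RPL26L1 is far to the right.

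The knockdown arrays differed little from each other for this family. The canonical genes had a median difference of -0.08 for SMARCA4-KD1 minus SMARCA4-KD2, and 61 of 75 were lower in SMARCA4-KD1. Of the 331 bright genes outside the name rule 235 were lower in SMARCA4-KD1, with a median of -0.06, as were 12511 of all 22619 genes. RPS12, of the 40S subunit, was the 1 gene past 1.5-fold between the knockdowns, where 6.59% of all genes were. It gave signals of 68988, 110645 and 77093, so that NC lay between them (-0.25 and 0.49). It was named for this value. RPL10L was lower in SMARCA4-KD2 than in SMARCA4-KD1 by 0.36, more than any other ribosomal protein gene for which a value is given.

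Limma, which took the spread between the knockdown arrays as the error and assumed that NC varies alike, called none of the 84 genes at an adjusted p of 0.05, as it called 0% of all genes. At an unadjusted p of 0.05 it passed 6 of the 84, 1 lower and 5 higher, where 31.6% of all genes passed. By the adjusted p SMARCA4, the targeted gene itself, was not called either. Its adjusted p was the same as that of RPL10L, RPL10 and RPL26L1, so the value does not tell these genes apart. With 1 residual degree of freedom this fit depended on the genes entered. Among the 19503 genes well above background on all arrays it called 26.5% and 6 of the 84, among them 4 with values given here, with adjusted p = 0.000465 for RPL10L, 0.000939 for RPL26L1, 0.0131 for RPL27A and 0.0145 for RPS27L. A t-test on the same values, with both knockdown arrays as 1 arm against 1 NC array, likewise had 1 degree of freedom. Its calls after adjustment were the same as those of the first limma fit, for the 84 genes and for all genes.

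Genes listed as TOP genes that are not ribosomal proteins had slightly higher medians than the canonical ribosomal protein genes, a difference that was not tested. By the scan of annotated starts, 13 of the 16 that had a start in the table carried the tract. The 25 listed translation factors and other TOP genes had medians of 0.17 and 0.22, with 21 of 25 above 0 in both, where 41.1% of all genes were. Most of the 25 were bright, and bright genes that the name rule did not match also tended to lie above 0. These still hold RPL10 and ribosomal protein pseudogenes listed under other names. Of 1640 such genes with a mean signal of at least 10000, 983 were above 0 in both, with medians of 0.12 and 0.12. Of the 25, 2 were at least 1.5-fold higher in both, near the 6.35% of all genes, and none was lower, where 8.03% of all genes were. EIF3F, a subunit of initiation factor eIF3, had signals of 9717, 9318 and 5377 (0.77 and 0.76). PABPC4, a cytoplasmic poly(A)-binding protein, had signals of 26120.3, 23027 and 12466 (0.98 and 0.85). The elongation factors EEF1A1 and EEF2 stood at 0.01 and 0.12, and at 0.27 and 0.39. FAU and GNB2L1 (now RACK1), which encode ribosomal proteins under other names, lay close together at 0.21 and 0.22, and at 0.23 and 0.24.

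Of 12 listed genes that control TOP translation, 1 was at least 1.5-fold lower in both knockdowns and 1 higher, near the 8.03% and 6.35% of all genes. LARP4, which binds poly(A) tails of ribosomal protein messages, had signals of 4302, 4294 and 6705 (-0.73 and -0.67), although the mean over its probes was -0.32. RPTOR, the scaffold of mTORC1, had signals of 4411, 3998 and 2469.7 (0.75 and 0.66). LARP1 stood at 0.33 and 0.17 and MTOR at -0.34 and -0.31, within 1.5-fold.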

How the data were processed

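Arrays were Agilent SurePrint G3 v3 arrays in 1 colour. Per the file headers, the authors extracted each spot's intensity with Agilent Feature Extraction 10.7.1.1, with background and spatial trends removed and no normalization between arrays; the deposited flags and errors were used as given. A further table for the whole series, deposited with the arrays, holds the same intensity and equalled the scanner value within 0.1% for all 168 ribosomal protein probes with 1 spot.

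Control spots and outlier flags were left out, repeated spots averaged, and log2 values taken relative to each array's 75th percentile (signals of 237, 228 and 223). Values not well above background were raised to the lowest value that was. The 29333 probes that were well above background on any array entered, with each gene name represented by its brightest probe. Names and hg19 positions are those of the files; RefSeq held the accession of 161 of the 169 probes, all under the same symbol. Of these probes 14, of 11 genes, share a run of at least 25 bases with a probe of another name.

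Calls used 1.5-fold, without a test. Limma 3.58.1 (R 4.3.3) was run with its variance prior following intensity and p-values adjusted by Benjamini-Hochberg; Python 3.11.15 with numpy 2.4.6, pandas 2.3.3 and matplotlib 3.10.9 was used otherwise. Simulated data were used to test the comparison of both knockdowns with NC (22619 genes): 94 of 100 genes changed by 1 on the log2 scale and 100 of 100 changed by 2 were past 1.5-fold in both, as were 41 unchanged genes. Noise on every simulated array, NC included, came from the spread between the knockdown arrays, which share a slide. The simulation thus holds no slide or culture difference of NC and gives no rate of false calls for these data. Named were SMARCA4, the paralogs and their canonical genes, RPL5, RPL11, the stalk, RPSA, the 5 lowest and 5 highest canonical genes, and genes of these and the translation lists past 1.5-fold in both knockdowns, except for a few items that are not reported here. The members, this rule and the lists were chosen with earlier results of these data known. Alternatives were other normalizations, background corrections, filters, probe choices, source tables, thresholds and limma settings.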

Additional observations from a re-analysis of the deposited data

How the results depend on the processing

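Of 94 recomputed summary values, 89 kept within 1.5 times a count or within the spread between the knockdown arrays for a median. No called gene changed sign under any alternative run. That spread, 0.10 on the log2 scale, is about as large as the canonical medians or larger, so a median counted as kept could still have changed much. At 2-fold in place of 1.5-fold, 2 rather than 4 ribosomal protein genes were called in SMARCA4-KD1 and 1 rather than 2 was higher in both knockdowns. Normexp background correction likewise left 1 higher in both. The shares of all genes at 2-fold and with normexp were not counted, so these drops cannot be set against those of all genes. Limma called 6 of the 84 genes with a filter on all arrays and 2 with quantile normalization, where 26.5% and 10.9% of all genes were called, and none without the trend or by the methods' t-test. The cause was not tested. The median of the canonical genes ran from -0.03 to 0.07 in SMARCA4-KD1, where the percentile over probes well above background turned its sign, and from 0.02 to 0.13 in SMARCA4-KD2; the SMARCA4-KD1 minus SMARCA4-KD2 median shrank from -0.08 to -0.01 at most. The median over all genes, as a mean of both knockdowns, lay between -0.02 and 0.05 with a filter and at -0.15 without one. The mean difference of RPL10L lay between -2.69 and -2.52, that of RPL10 between -2.27 and -2.19, that of RPL26L1 between 1.08 and 1.20 and that of RPL27A between 0.61 and 0.79. RPL31 stood at -0.04 with quantile normalization and -0.05 with normexp, RPL3L at 0.11 with normexp, and RPS27 at -0.25 as the mean over its probes. Limits for a dim probe of 1000 and 20000, added after seeing the data, gave medians of 0.59 and 0.52 against 0.54. As no spot was saturated, the choice of unsaturated probes changed nothing. The filters and the floor likewise could not change the differences of the 84 genes, which were well above background on all arrays. These alternatives therefore add to the count of values kept without testing them. No paired analysis was possible because each condition had 1 array.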

Other observations

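Probes described as ribosomal protein pseudogenes, processed copies with near-identical sequence, were related to their parent genes in their differences from NC where they were bright, with exceptions. Among 71 such probes of 36 parent genes with a mean signal of at least 10000, the mean difference over both knockdowns correlated with that of the parent (Pearson's r = 0.845, Spearman's rho = 0.545), and without RPL10 with r = 0.682 over 70 probes. These are correlations across probes of the same 3 arrays, which share sequence and are not independent replicates. Both bright RPS27 pseudogene probes stood at -0.70 to -0.79 in SMARCA4-KD1 and at -0.26 to -0.40 in SMARCA4-KD2, beside -0.71 and -0.26 for RPS27. All 7 bright probes of RPL7 pseudogenes were below NC in both knockdowns, from -0.56 to -0.19 in SMARCA4-KD1, as RPL7 was. However, the bright pseudogene probes of RPL5 (0.02 to 0.26 in SMARCA4-KD1), of RPL36A (-0.03 to 0.03) and of RPS26 (0.31) lay apart from the brightest probes of their parents (-0.26, -0.42 and -0.08). The 41 dimmer pseudogene probes had r = 0.107 with their parents. In both knockdowns 4 of them were 1.5-fold or more above NC, where 6.56% of other probes of such signals were, and 1 was as far below (RPS16P5, -1.34 and -1.20). Among the 4 were 2 dim probes of RPL23AP7 at 0.70 and 0.67 and at 0.81 and 0.99, whereas its bright probe stood at 0.14 and 0.45. The probes were named for their values. Which RNAs these probes bound was not tested.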
